A study of Bos taurus with 24 samples.

Results

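The aminoacyl-tRNA synthetase genes of the bovine oocyte are described here, together with the proteins that scaffold, complete or edit their work. Members were taken by gene symbol: the single-letter synthetase names with and without the suffix 2, FARSA, FARSB, EPRS, AARSD1, AIMP1, AIMP2, PSTK, QRSL1, GATB and GATC. The rule found 41 genes among the 11306 in the deposited table. Of these, 17 encode cytosolic enzymes, 15 encode mitochondrial enzymes, and GARS and KARS each serve both compartments. The other members are the 3 subunits of the mitochondrial amidotransferase GatCAB (QRSL1, GATB, GATC), the 2 scaffold proteins AIMP1 and AIMP2, and the pair PSTK and AARSD1. VARS, EARS2 and PARS2 were not analysed here.

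Each synthetase joins 1 kind of amino acid to its matching tRNA, the step that gives the genetic code its meaning during translation. Mammalian cells keep separate sets of enzymes for the cytosol and for the mitochondrial matrix, and both sets are encoded in the nucleus. Several cytosolic enzymes sit in a multisynthetase complex held by the AIMP scaffold proteins. A fully grown oocyte is largely silent in transcription, so the mRNA it holds at the germinal vesicle (GV) stage is what it translates, stores or degrades on its way to metaphase II (MII).

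Oocytes came from crossbred, non-lactating and non-pregnant Angus-based beef cows, collected by ovum pick-up in May (called spring) and July (called summer). GV oocytes were denuded of cumulus cells without culture, and MII oocytes were denuded after in vitro maturation of the cumulus-oocyte complexes. Each of the 4 groups, spring GV, spring MII, summer GV and summer MII, held 6 libraries. Each library was described as a pool of 4 oocytes from 1 animal, whereas the library notes speak of individual cells. The same cows were sampled at each session and gave oocytes of both stages, so the groups may share animals. GV oocytes had no time in culture, so the stage and the culture cannot be told apart, and neither can the season and the date of collection.

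The values are called FPKM, fragment counts scaled for depth and gene length. They sum to between 86768.1 and 86768.2 in every library, so they were scaled to this sum and not to the number of reads. Within each library they moved in whole steps once 0.01 was taken off and the rest multiplied by the distance from start to stop of the locus. So 0.01 had been added to every value, also where no read fell. The division had been by genomic span with introns and not by exon length. The numbers of reads behind the values could therefore be recovered, and 99.9% of 909 member values under 1000 reads fell within 0.1 of a whole number, where chance gives 20%. A level is a share of the constant sum, so for 1 gene libraries can be compared in that share only. Genes of different intron content cannot be compared. In spring MII replicate 6 the depth by the worth of 1 read was 0.149 of that in spring GV replicate 1. Their reads numbered 1028739 and 3613756, so 1 read counted for more there than library size alone would give. Recovered reads ran from 324654 to 28207689 per library, with a median of 3836568. The 3 libraries with the fewest reads were spring GV replicate 6, spring MII replicate 6 and summer GV replicate 2, and the results they moved most are also given without them. No pair of libraries held identical values.

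The 12 listed oocyte markers summed to between 971.3 and 2326 FPKM per library, and the 14 listed cumulus or granulosa markers to between 13.3 and 74.1. The oocyte sums were 971.3 to 1453 in spring GV and 1580 to 2063 in spring MII, without overlap. In summer they were 1270 to 2267 in GV and 1641 to 2326 in MII, with overlap. Of the 12 oocyte markers, 4 rose and 2 fell in spring MII, and 1 rose and 3 fell in summer MII. Of the 11 cumulus markers over the filter, 1 rose in MII in both seasons and 1 fell in summer. HAS2, the hyaluronan synthase of expanding cumulus cells, rose from means of 0.297 and 0.486 FPKM in spring and summer GV to 1.82 and 2.15 in MII (1.06 ± 0.20 and 1.04 ± 0.24). GREM1, a BMP antagonist, fell in summer (-0.45 ± 0.13). FSHR, the follicle-stimulating hormone receptor of granulosa cells, stood at the table's lowest value of 0.01 in every MII library. The highest cumulus sum by group was 74.1 in spring GV, 72.4 in summer GV, 51.8 in spring MII and 54.5 in summer MII, and the groups overlapped. The part of these markers in the results was not tested.

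Of the 41 members, 38 exceeded 0.1 FPKM in at least 1 library and were tested. The 3 that did not were AARS2 and LARS2, the mitochondrial enzymes for alanine and leucine, and QRSL1, the catalytic subunit of GatCAB. Their loci span 67764, 150108 and 38778 bases, and the division by span sets their values low.

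By mean FPKM over the 24 libraries, RARS was highest among the cytosolic enzymes at 4.76 and CARS lowest at 0.109. CARS2 was highest among the mitochondrial enzymes at 1.66, and LARS2 lowest at 0.0128. The 0.01 added to every value makes up most of the LARS2 level. Of the other members, AIMP2 (4.52), AIMP1 (3.19), AARSD1 (2.22), KARS (2.20) and GATC (1.57) exceeded 1 FPKM on average. The GATC locus overlaps those of TRIAP1 and ZNF280B, so some GATC reads may belong to them. These orders compare values divided by locus span, and they would change on a scale of exon length. In reads, the median over libraries was 1022 for RARS2 and 798.0 for RARS, against 3.00 for VARS2 and 2.5 for LARS2.

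MII and GV oocytes were compared first in spring, to ask which synthetase messages differ between the immature and the matured oocyte. In MII oocytes 2 members rose, FARSB and IARS, and 6 fell, AARS, CARS2, FARSA, HARS, RARS and SARS2 (limma, Benjamini-Hochberg adjusted p under 0.05). These 8 of 38 make 21.1%, near the 24.2% of all 9526 genes tested that changed. By direction, 9.45% of all genes rose and 14.7% fell. The cytosolic enzymes gave 2 that rose and 4 that fell of 17, with a median log2 change of -0.13. The mitochondrial enzymes gave 2 that fell of 13, with a median of 0.01. The median over all genes was -0.03. At an unadjusted p under 0.05, 13 of 38 members changed, beside 38.8% of all genes.

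In summer, DARS and IARS rose, and AARS, AARSD1, AIMP2, CARS2, FARS2, FARSA, HARS, PSTK, QARS, RARS, SARS2, VARS2 and YARS2 fell. These 15 of 38 make 39.5%, against 30.7% of all genes, of which 7.67% rose and 23.1% fell. The counts were 2 rising and 5 falling of 17 cytosolic enzymes, and 5 falling of 13 mitochondrial enzymes. Their medians were -0.10 and -0.06, beside -0.02 over all genes. At an unadjusted p under 0.05, 18 of 38 members changed, beside 42.1% of all genes. All 6 members that fell in spring also fell in summer, and IARS rose in both seasons. The 7 that fell in summer alone also had estimates below 0 in spring.

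**Figure D1:**
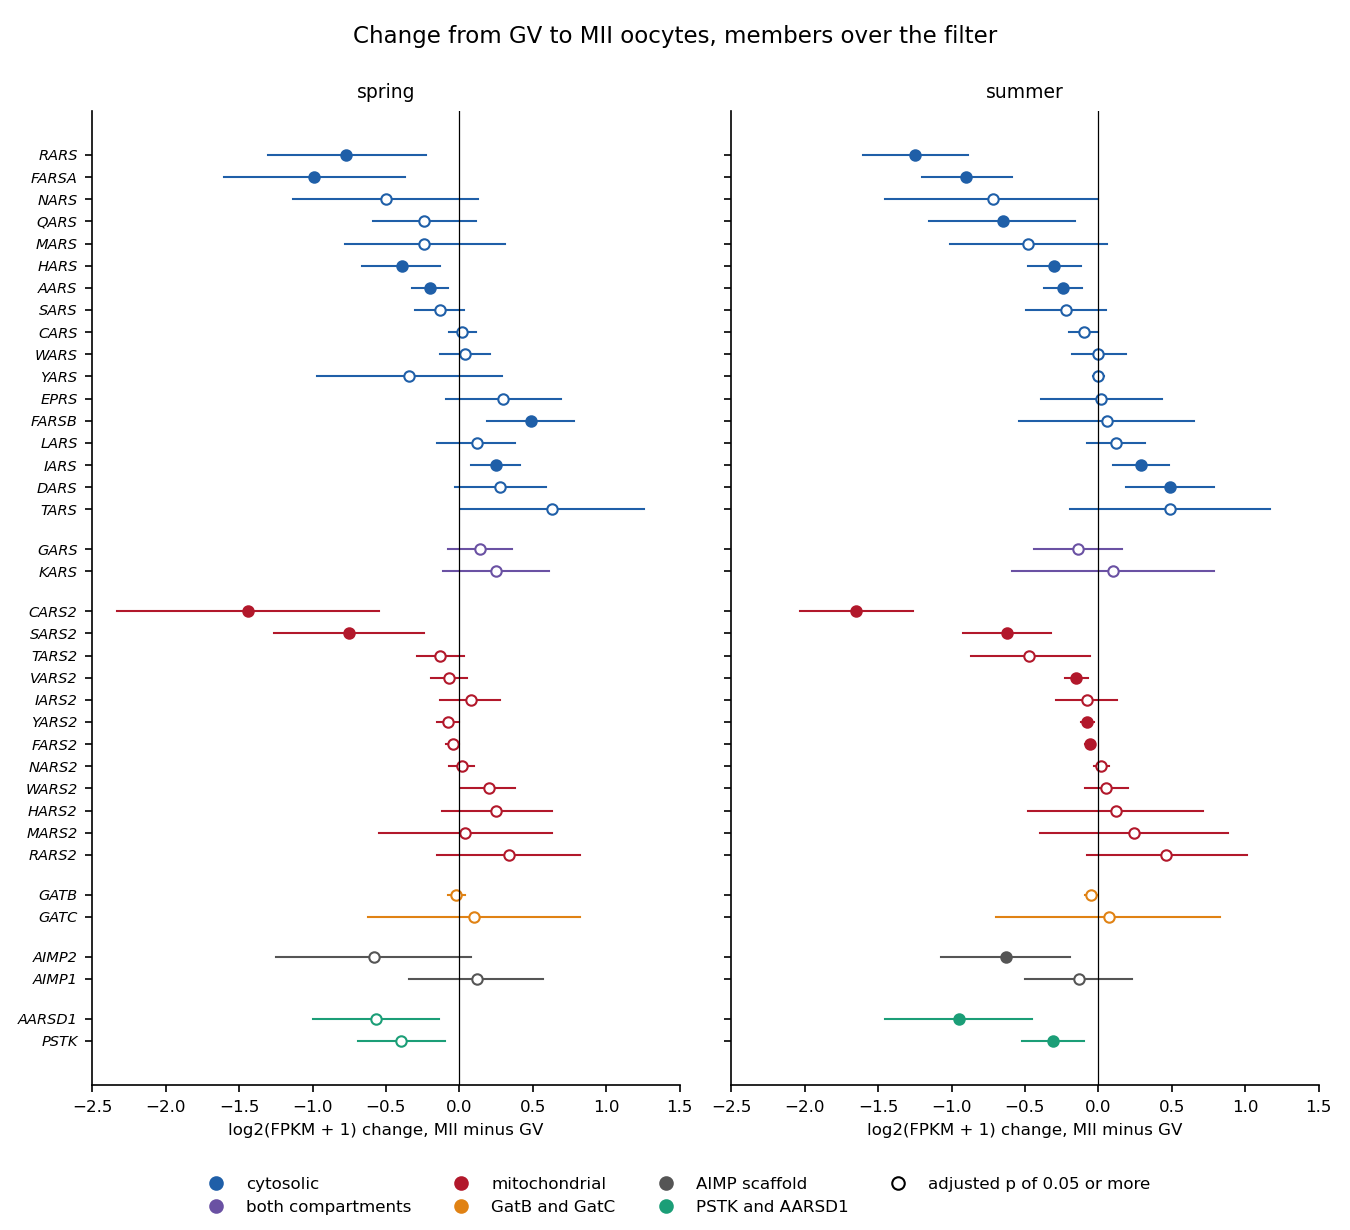
Change from GV to MII oocytes in log2(FPKM + 1) for the members over the filter that are reported by name, with spring on the left and summer on the right. Points are limma estimates with 95% intervals, filled at an adjusted p under 0.05 and coloured by compartment. CARS2 lies farthest below 0 of the filled points in both seasons, at -1.44 and -1.65, and IARS lies above 0 in both, at 0.25 and 0.29.

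Without the 3 libraries of fewest reads, all 8 spring calls and all 15 summer calls remained. In spring 7 members then rose and 10 fell, against 19.3% and 22.6% of all genes, with DARS, EPRS, LARS, TARS and WARS2 added to those that rose and AARSD1, FARS2, QARS and TARS2 to those that fell. In summer 3 rose and 14 fell, against 13.1% and 26.2% of all genes, with TARS and TARS2 added.

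Without the division by locus span, a scale chosen after the data were seen, all 41 members could be tested. In spring 2 rose and 10 fell, beside 13.3% and 18.6% of all genes, and in summer 2 rose and 14 fell, beside 9.58% and 27.1%. Under the rule of an unadjusted p under 0.05 and a fold over 2 on log2(FPKM + 1), CARS2 was lower in spring and CARS2 and RARS in summer, and 0 members were higher. With the added 1, a gene under 1 FPKM in both groups cannot meet this rule. AARS, with means 6.11- and 6.02-fold lower in MII, did not meet it, so these counts depend on the added 1. That rule took 3.57% of all genes as higher and 8.25% as lower in spring, and 2.20% and 9.26% in summer. In the season comparisons it took 0 members, beside 0.0105% of all genes higher and 0.0210% lower in GV, and 0% and 0.0420% in MII. Without the added 1, the same thresholds took 68 of all genes higher and 48 lower in GV, and 20 and 82 in MII. The study's own calls came from Partek GSA and were not repeated here. For the difference between the seasons, the rule on log2(FPKM + 1) took 0 members, beside 0.0315% and 0.178% of all genes.

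Among the cytosolic enzymes that fell, AARS charges alanine and lies on chromosome 18, 1829597 to 1850874 (bovine build UMD3.1.1, as in the table). Its level ran from 0.107 to 0.411 FPKM in spring GV (median 0.140) and from 0.01 to 0.0753 in spring MII (median 0.0249). In summer it ran from 0.120 to 0.448 in GV (median 0.187) and from 0.01 to 0.106 in MII (median 0.0243). Every MII library lay below every GV library in each season. The mean was 6.11-fold lower in spring MII and 6.02-fold lower in summer MII, with log2(FPKM + 1) changes of -0.20 ± 0.05 (SE) and -0.24 ± 0.06 and adjusted p of 0.0174 and 0.00871. Because the levels are low, the added 1 holds these log2 changes far under the folds. The folds in turn include the 0.01 held by every deposited value, which draws them towards 1. The 12 MII libraries held 0 to 12 AARS reads each, against 5 to 158 in the GV libraries.

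RARS, the arginyl-tRNA synthetase of the multisynthetase complex, had more reads than any other cytosolic member, 43386 in all (chromosome 7, 82792843 to 82822086). Spring GV libraries held 3.57 to 8.32 FPKM (median 5.26) and spring MII libraries 1.53 to 4.65 (median 2.73), so the groups overlapped. Summer GV libraries held 6.88 to 8.23 (median 7.51) and summer MII libraries 1.89 to 4.27 (median 2.59), with no overlap. The fall was 1.96-fold in spring (-0.77 ± 0.25, adjusted p = 0.0392) and 2.82-fold in summer (-1.25 ± 0.16, adjusted p = 0.000133).

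HARS, which charges histidine in the cytosol, ran from 0.267 to 1.18 FPKM in spring GV (median 0.452) and from 0.0577 to 0.338 in spring MII (median 0.135). The summer ranges were 0.262 to 0.662 (median 0.490) and 0.119 to 0.450 (median 0.160). MII medians lay below GV medians in both seasons, with overlap of single libraries. The mean was 3.39-fold lower in spring (-0.39 ± 0.12, adjusted p = 0.0347) and 2.33-fold lower in summer (-0.30 ± 0.08, adjusted p = 0.0170).

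QARS, the glutaminyl enzyme of the complex, passed the test in summer alone. Summer GV libraries ran from 0.190 to 2.46 FPKM (median 0.845) and summer MII libraries from 0.0370 to 0.561 (median 0.114), a 5.20-fold difference of means (-0.65 ± 0.23, adjusted p = 0.0467). In spring the estimate was -0.24 ± 0.16 (adjusted p = 0.285). The difference between the seasons had no adjusted p under 0.05 for QARS or any other member.

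IARS and DARS, the isoleucyl and aspartyl enzymes of the same complex, moved the other way. IARS ran from 0.122 to 0.325 FPKM in spring GV (median 0.186) and from 0.264 to 0.543 in spring MII (median 0.406). Its summer ranges were 0.125 to 0.400 (median 0.201) and 0.321 to 0.696 (median 0.525). MII oocytes were higher with a small overlap in both seasons, at ratios of means of 2.14 and 2.20. The log2 changes were 0.25 ± 0.08 (adjusted p = 0.0312) and 0.29 ± 0.09 (adjusted p = 0.0245).

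DARS rose in summer, from 0.186 to 0.426 FPKM in GV (median 0.279) to 0.515 to 1.70 in MII (median 0.740). Every summer MII library lay above every summer GV library, and the ratio of means was 2.90 (0.49 ± 0.14, adjusted p = 0.0170). In spring DARS ran from 0.223 to 0.644 in GV and from 0.217 to 1.02 in MII, with an estimate of 0.28 ± 0.14 and an adjusted p of 0.162.

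The complex was counted as a whole. Of its 10 members over the filter (DARS, EPRS, IARS, KARS, LARS, MARS, QARS, RARS, AIMP1 and AIMP2), 1 rose and 1 fell in spring, and 2 rose and 3 fell in summer, beside 24.2% and 30.7% of all genes that changed. Their median changes were 0.12 and -0.06. AIMP2, a scaffold protein, fell in summer from 3.60 to 7.81 FPKM (median 4.89) to 1.98 to 3.93 (median 3.02), or 1.77-fold (-0.63 ± 0.20, adjusted p = 0.0327). Its locus overlaps that of EIF2AK1 and the library kit does not mark strand, so reads of the 2 genes cannot be told apart where they overlap. AIMP1 had a median of 3.06 in spring GV, 3.75 in spring MII, 3.67 in summer GV and 2.80 in summer MII, and its estimates of 0.12 ± 0.21 and -0.13 ± 0.17 passed in neither season.

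EPRS, LARS and MARS of the complex, which charge glutamate and proline, leucine, and methionine, passed in neither season. Their estimates were 0.30 ± 0.18, 0.12 ± 0.12 and -0.24 ± 0.25 in spring and 0.02 ± 0.19, 0.12 ± 0.09 and -0.48 ± 0.24 in summer. Without summer GV replicate 2 the summer estimate of MARS was -0.26 ± 0.15. The MARS locus overlaps that of DDIT3, a stress-response factor at means of 57.2 to 125.4 FPKM by group, so some MARS reads may belong to DDIT3. KARS, the lysyl enzyme, and GARS, the glycyl enzyme, serve both compartments and gave estimates of 0.25 ± 0.17 and 0.14 ± 0.10 in spring and 0.10 ± 0.32 and -0.14 ± 0.14 in summer.

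Cytosolic phenylalanyl-tRNA synthetase is built from a catalytic subunit, FARSA, and a second subunit, FARSB, in equal number. Their messages moved apart. FARSA (chromosome 7, 13741743 to 13751841) ran from 0.191 to 2.71 FPKM in spring GV (median 1.96) and from 0.01 to 0.713 in spring MII (median 0.146). Its summer ranges were 0.665 to 2.06 (median 1.05) and 0.0318 to 0.309 (median 0.123). MII libraries lay below all GV libraries in summer and overlapped with them in spring. The fall was 7.47-fold in spring (-0.99 ± 0.29, adjusted p = 0.0250) and 8.29-fold in summer (-0.90 ± 0.14, adjusted p = 0.000522).

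FARSB (chromosome 2, 111504465 to 111578409) ran from 0.365 to 0.817 FPKM in spring GV (median 0.619) and from 1.09 to 1.69 in spring MII (median 1.19). Every spring MII library lay above every spring GV library, with a ratio of means of 2.05 (0.49 ± 0.14, adjusted p = 0.0222). In summer it ran from 0.517 to 4.38 in GV (median 0.972) and from 0.901 to 2.20 in MII (median 1.13), and the estimate was 0.06 ± 0.28 (adjusted p = 0.900). The summer GV value of 4.38 came from replicate 2, 1 of the 3 libraries with fewest reads. Without it the summer estimate was 0.31 ± 0.15 (adjusted p = 0.127). Within libraries, the quotient of FARSA to FARSB ran from 0.335 to 5.19 in spring GV and from 0.280 to 2.01 in summer GV. It ran from 0.00804 to 0.423 in spring MII and from 0.0352 to 0.191 in summer MII, so the groups overlapped in spring and did not in summer. The value of 0.00804 is that of spring MII replicate 5, with 0 FARSA reads, and is set by the added 0.01. The value of 0.423 rests on 11 FARSA reads. The overlap in spring came from spring MII replicate 6, and without the 3 libraries of fewest reads the spring MII quotients reached 0.158. In reads, FARSA held 0 to 20 per MII library against 192 to 910 for FARSB.

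**Figure D2:**
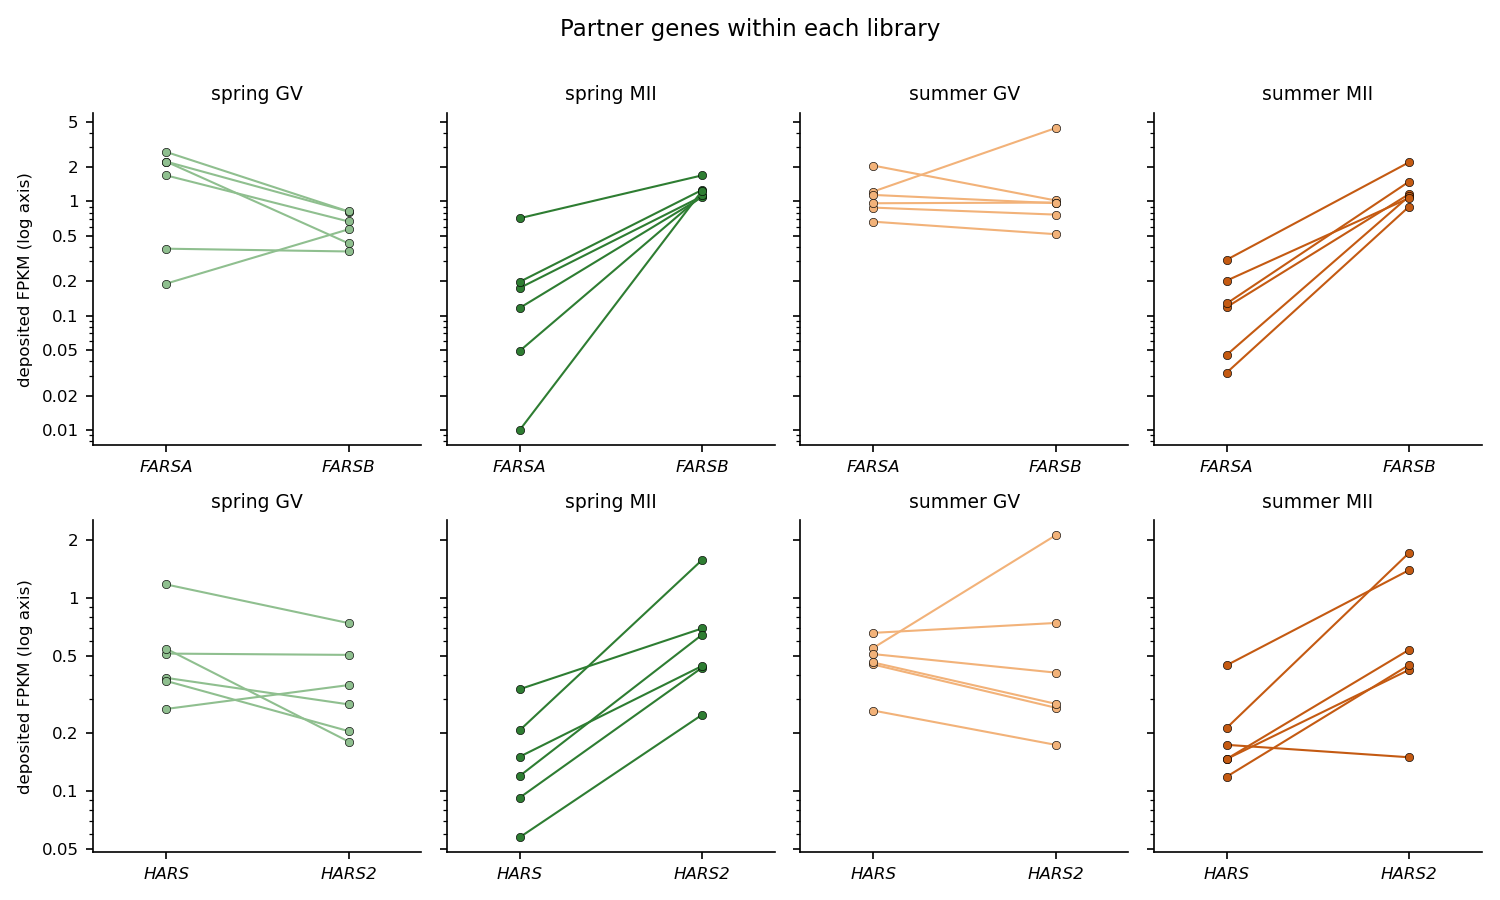
Deposited FPKM on a log axis for FARSA and FARSB (upper panels) and HARS and HARS2 (lower panels), joined by a line within each of the 24 libraries. The slope between genes reflects locus span as well as level, so only the change in slope between groups can be read. FARSA is at 0.01 to 0.713 in spring MII and FARSB at 1.09 to 1.69.

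The largest fall among the mitochondrial enzymes over the filter was that of CARS2, which charges cysteine (chromosome 12, 89251278 to 89270404). It ran from 0.723 to 8.63 FPKM in spring GV (median 1.69) and from 0.167 to 0.396 in spring MII (median 0.235). In summer it ran from 1.67 to 3.87 in GV (median 2.85) and from 0.0559 to 0.316 in MII (median 0.161). Every MII library lay below every GV library in both seasons. The fall was 12.8-fold in spring (-1.44 ± 0.41, adjusted p = 0.0233) and 15.5-fold in summer (-1.65 ± 0.18, adjusted p = 4.02e-05). The 12 MII libraries held 8 to 71 reads of it each, and the 12 GV libraries 8 to 3983.

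SARS2, the mitochondrial seryl enzyme (chromosome 18, 48896561 to 48905600), ran from 0.181 to 2.65 FPKM in spring GV (median 0.995) and from 0.0250 to 0.252 in spring MII (median 0.139). Summer GV libraries held 0.401 to 1.35 (median 0.483) and summer MII libraries 0.0364 to 0.176 (median 0.103). The groups overlapped in spring alone. The fall was 7.70-fold (-0.75 ± 0.24, adjusted p = 0.0356) and 7.13-fold (-0.62 ± 0.14, adjusted p = 0.00461).

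Below these, 3 mitochondrial enzymes of low level fell in summer, and the 0.01 in every deposited value draws their folds towards 1. FARS2, the phenylalanyl enzyme with the longest locus of all members (307855 bases), ran from 0.0404 to 0.103 FPKM in summer GV and from 0.0157 to 0.0252 in summer MII, without overlap. Its mean was 3.15-fold lower, although its log2(FPKM + 1) change was -0.06 ± 0.01 (adjusted p = 0.00478). VARS2, the valyl enzyme, ran from 0.0664 to 0.229 and from 0.01 to 0.0512, without overlap, a 5.35-fold fall (-0.15 ± 0.04, adjusted p = 0.00719). It rests on 0 to 3 reads in each summer MII library, and its locus overlaps an H2B entry. YARS2, the tyrosyl enzyme, ran from 0.0561 to 0.118 and from 0.01 to 0.0685, with overlap, a 2.95-fold fall (-0.08 ± 0.02, adjusted p = 0.0117). Its locus overlaps DNM1L. In spring the estimates of the 3 were -0.04 ± 0.02, -0.07 ± 0.06 and -0.08 ± 0.04, and none had an adjusted p under 0.05. FARS2 passed the filter only through summer GV replicate 2, at 0.103 FPKM, and YARS2 only through GV libraries. Their entry to the test thus depended on the stage where they were higher. Both summer calls remained with no filter.

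The other 8 mitochondrial enzymes over the filter passed in neither season. RARS2 for arginine had the highest summer estimate (0.46 ± 0.25, adjusted p = 0.184) and TARS2 for threonine the lowest (-0.47 ± 0.19, adjusted p = 0.0752). NARS2, for asparagine, had estimates of 0.02 ± 0.04 in spring and 0.02 ± 0.02 in summer. GATB and GATC, which work with QRSL1 to make glutaminyl-tRNA in mitochondria, gave -0.02 ± 0.03 and 0.10 ± 0.33 in spring and -0.05 ± 0.02 and 0.07 ± 0.35 in summer, and neither passed.

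**Figure D3:**
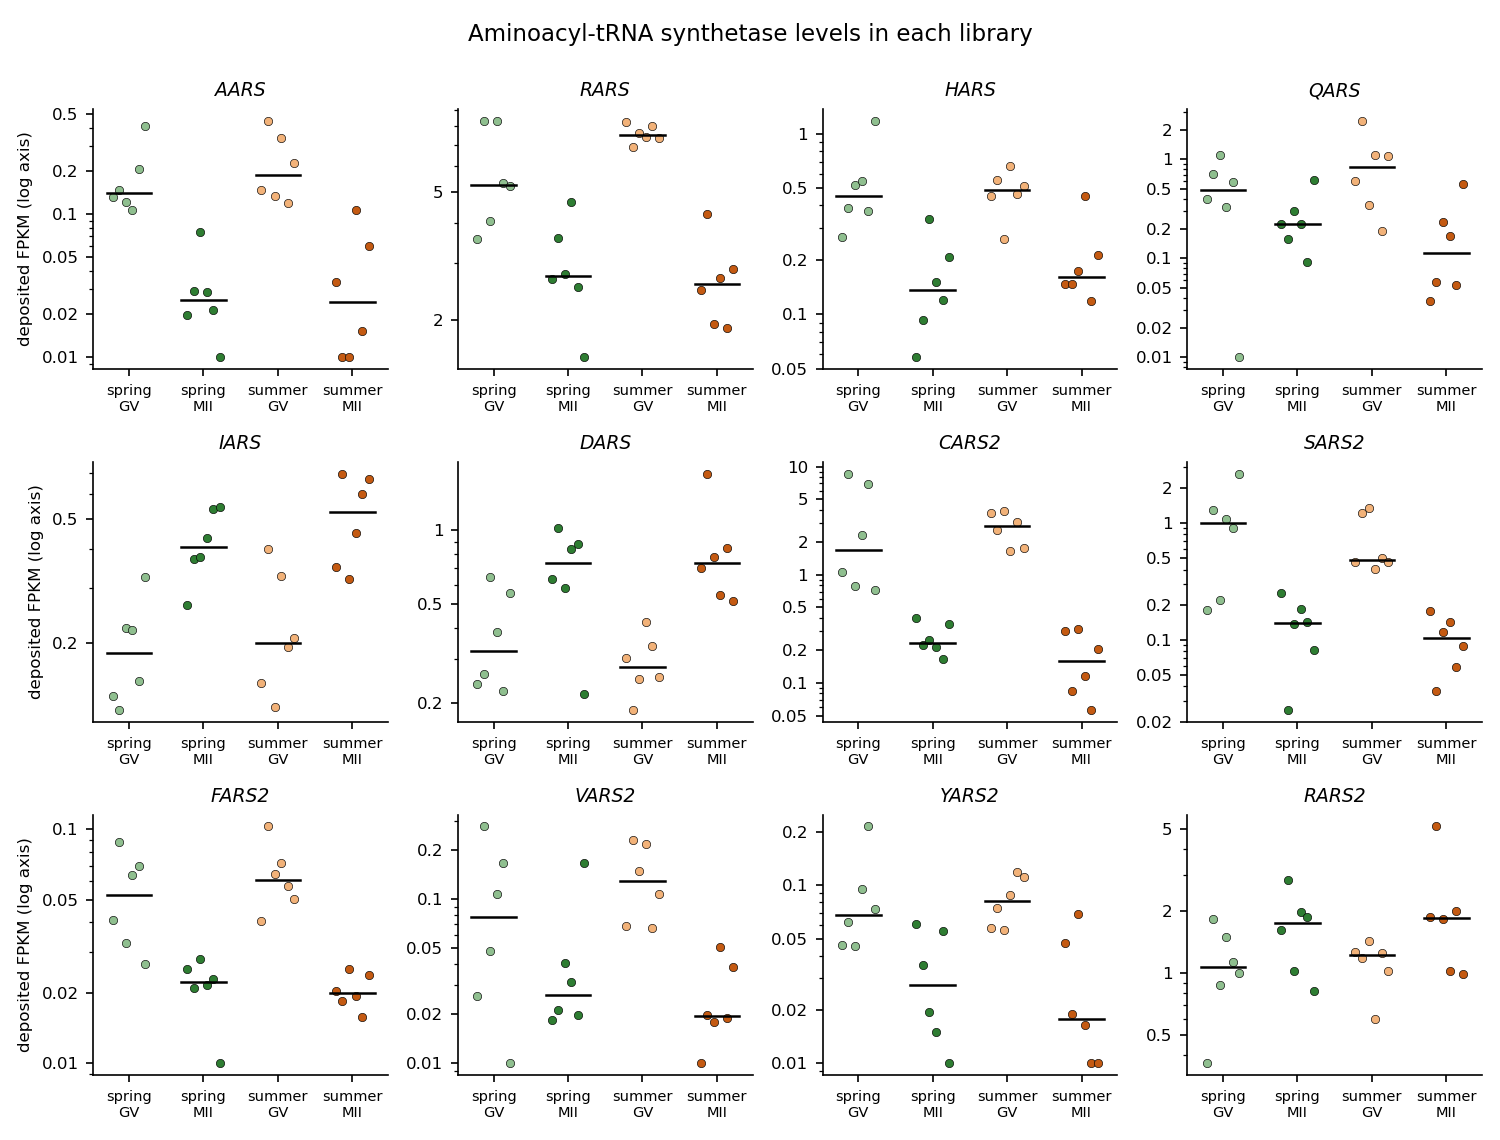
Deposited FPKM on a log axis in each of the 24 libraries for 12 members, with 6 points per group in replicate order and a bar at the median. AARS and CARS2 show no overlap of GV and MII in either season, whereas RARS2 overlaps in both.

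PSTK, the kinase that prepares seryl-tRNA for conversion to selenocysteine, ran from 0.299 to 0.620 FPKM in summer GV (median 0.554) and from 0.0639 to 0.498 in summer MII (median 0.171). It was 2.40-fold lower in summer MII (-0.31 ± 0.10, adjusted p = 0.0278). AARSD1, which clears wrongly charged alanyl-tRNA, ran from 2.38 to 7.12 in summer GV (median 2.82) and from 0.754 to 1.84 in summer MII (median 1.2), without overlap, or 2.80-fold lower (-0.95 ± 0.23, adjusted p = 0.00806). In spring both lay just outside the threshold, at -0.40 ± 0.14 and -0.57 ± 0.20 with an adjusted p of 0.0514 for each.

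Counted by libraries that do not overlap, 1 of 38 members was higher in spring MII (FARSB) and 2 were lower (AARS, CARS2). Over all genes these shares were 4.65% and 8.98%. In summer 1 was higher (DARS) and 8 were lower (AARS, AARSD1, CARS2, FARS2, FARSA, RARS, SARS2, VARS2), with shares over all genes of 3.07% and 14.7%.

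The cytosolic and the mitochondrial enzyme of 1 amino acid were then set against each other within each library, in 12 pairs that include FARS2 against each of FARSA and FARSB. The measure was log2(FPKM + 1) of the mitochondrial gene minus that of the cytosolic gene, compared between MII and GV by a two-sided exact permutation test over all assignments of 6 and 6 libraries, whose smallest p is 0.00216. In each season 3 differences rose and 4 fell at an unadjusted p under 0.05. Of all single genes, 38.8% in spring and 42.1% in summer passed that threshold by limma. The share among other pairs of genes was not computed. The pairs share FARS2 and the libraries, and they are not independent.

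For arginine the measure rose. RARS fell, and RARS2 had estimates of 0.34 ± 0.22 and 0.46 ± 0.25 that did not pass. It moved from -1.66 ± 0.16 (SD, n = 6) in spring GV to -0.56 ± 0.29 in spring MII, and from -2.02 ± 0.21 in summer GV to -0.32 ± 0.50 in summer MII (exact p = 0.00216 in each season). The quotient of RARS to RARS2 in FPKM ran from 4.56 to 9.76 in spring GV and from 1.28 to 2.71 in spring MII. In summer it ran from 5.27 to 12.4 and from 0.828 to 2.92. No MII library reached the range of the GV libraries.

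For cysteine the measure fell, from 1.65 ± 1.05 (SD, n = 6) to 0.19 ± 0.09 in spring and from 1.67 ± 0.40 to 0.13 ± 0.14 in summer (exact p = 0.00216 in each). CARS, the cytosolic partner, had medians of 0.105, 0.102, 0.134 and 0.0709 FPKM in spring GV, spring MII, summer GV and summer MII, and passed in neither season. For threonine the measure fell by 0.76 and 0.96 (exact p = 0.0260 and 0.00433). Among the pairs compared, the same call in both seasons was made for arginine, cysteine and threonine, beside the FARS2 and FARSA pair for phenylalanine. The measure of that pair rose by 0.94 and 0.84 (exact p = 0.0216 and 0.00216), but FARS2 did not rise. Its log2(FPKM + 1) estimates were -0.04 and -0.06, against -0.99 and -0.90 for FARSA, so the measure rose through the fall of FARSA. With the added 1, a partner far under 1 FPKM moves the measure little, whatever its fold.

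For histidine, HARS and HARS2 lie head to head on chromosome 7, at 53487090 to 53500191 on the minus strand and 53500352 to 53507323 on the plus strand, with 161 bases between them. HARS fell as given above, whereas HARS2 had medians of 0.319, 0.546, 0.348 and 0.496 FPKM in spring GV, spring MII, summer GV and summer MII, with estimates of 0.25 ± 0.17 in spring and 0.12 ± 0.27 in summer that did not pass. The measure rose from -0.15 ± 0.19 to 0.49 ± 0.31 in spring (SD, n = 6, exact p = 0.00216). In summer it went from 0.08 ± 0.46 to 0.50 ± 0.41 (exact p = 0.141). The quotient of HARS to HARS2 was 0.752 to 3.03 in spring GV and 0.131 to 0.484 in spring MII, without overlap, and 0.261 to 1.68 and 0.124 to 1.16 in summer, with overlap. HARS2 had 3 to 129 reads per library, so its level is known less closely than that of RARS.

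The other pairs passed in 1 season or in neither. The methionine and isoleucine measures changed in summer by 0.72 and -0.37 (exact p = 0.00216 for each), and the serine measure in spring by -0.61 (exact p = 0.0238). FARS2 against FARSB changed in spring by -0.53 (exact p = 0.00216). The tyrosine measure changed in summer by -0.07 (exact p = 0.0238), and its spring GV values rest on 1 library with YARS at 3.12 FPKM. Asparagine and tryptophan passed in neither season, at 0.52 and 0.74 for asparagine and 0.16 and 0.05 for tryptophan. The locus of NARS, the cytosolic asparagine enzyme, overlaps that of SERPINB2. Without spring GV replicate 6, the spring tyrosine measure was -0.07 in place of 0.26.

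Several pair calls changed with the scale or the libraries. Without the division by span, the spring call of FARS2 against FARSA was lost (exact p = 0.506) and so was the summer call for tyrosine (exact p = 0.0758). On that scale asparagine passed in both seasons (1.4 and 1.52, exact p = 0.0368 and 0.0216), isoleucine in spring (exact p = 0.0346), and histidine and FARS2 against FARSB in summer (exact p = 0.0303 and 0.00216). Without the 3 libraries of fewest reads, the spring serine call was lost (exact p = 0.0873). Isoleucine then passed in spring (exact p = 0.00794), and histidine and FARS2 against FARSB in summer (exact p = 0.00866 for each).

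**Figure D4:**
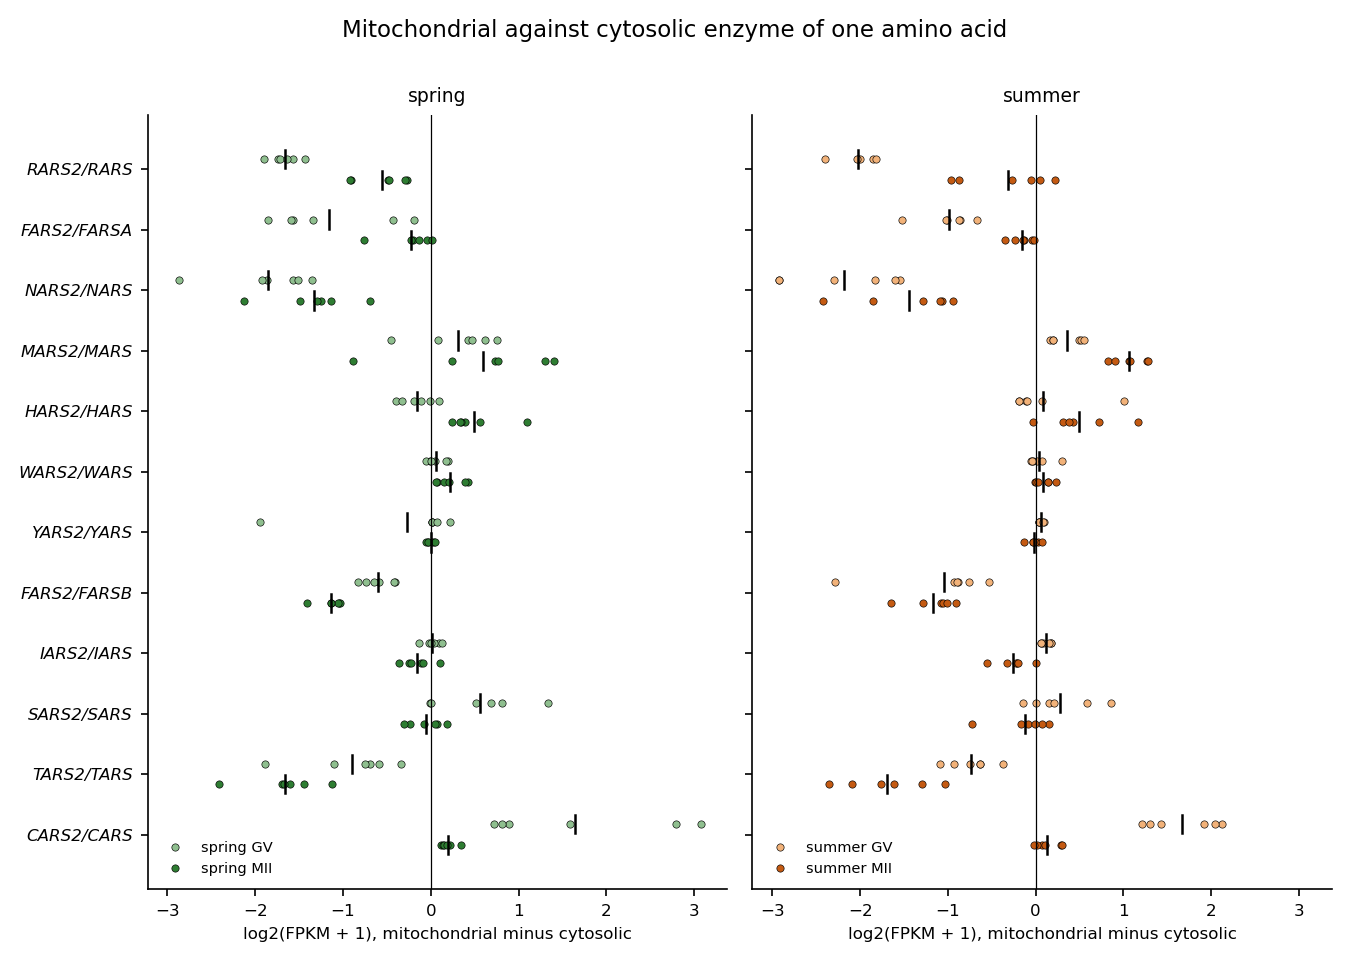
Difference in log2(FPKM + 1) between the mitochondrial and the cytosolic enzyme of the same amino acid in each library, with spring on the left and summer on the right and bars at group means. GV and MII libraries separate fully for RARS2/RARS and CARS2/CARS in both seasons, in opposite directions.

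Summed over members, recovered reads, scaled to 1000000 in each library, ran from 1777 to 2818 in spring GV and from 1384 to 1956 in spring MII. In summer they ran from 2379 to 2715 in GV and from 1553 to 2283 in MII. The MII libraries were lower in summer without overlap and lower in spring with overlap. In reads per 1000000, the median log2 change over all 9637 genes tested was also below 0, at -0.29 in spring and -0.41 in summer. Of these genes 903 rose and 2295 fell in spring, and 737 rose and 3121 fell in summer (limma, adjusted p under 0.05). So the lower sums are not shown to be particular to the synthetases. For the cytosolic enzymes alone the medians were 1031 and 903.0 in spring GV and MII and 1233 and 868.1 in summer. For the mitochondrial enzymes they were 446.3, 408.9, 507.1 and 437.2 in the same order, with wide overlap. In these pools, fewer molecules of 1 message and more of all others cannot be told apart, and neither can a lost message and one whose poly(A) tail no longer primed the reaction.

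The season comparisons asked whether summer oocytes differ from spring oocytes in their synthetase messages. In GV oocytes 0 of 38 members had an adjusted p under 0.05 by limma, and 0 had an unadjusted p under 0.05. Over all 9526 genes, 0% passed after adjustment and 1.55% before it. The 3 smallest p were those of TARS2 (0.35 ± 0.19), RARS (0.39 ± 0.21) and FARSB (0.46 ± 0.27), each higher in summer, at unadjusted p of 0.0843, 0.0904 and 0.109. Summer GV libraries held 0.174 to 1.93 FPKM of TARS2 against 0.122 to 0.326 in spring, and the groups overlapped. The highest TARS2 and FARSB values were both those of summer GV replicate 2. Without that library the estimates were 0.16 ± 0.09 for TARS2, 0.41 ± 0.22 for RARS and 0.20 ± 0.13 for FARSB.

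In MII oocytes 0 of 38 members passed, at adjusted or at unadjusted p under 0.05, beside 0% and 2.11% of all genes. CARS2 (-0.10 ± 0.07), AIMP1 (-0.21 ± 0.16) and MARS2 (0.35 ± 0.28) had the smallest p, of 0.149, 0.208 and 0.234. No member had groups without overlap in either season comparison, where 0.136% of all genes were higher and 0.0420% lower in summer GV, and 0.0105% higher and 0.168% lower in summer MII. Without the 3 libraries of fewest reads, AIMP1 stood at -0.32 ± 0.13 and MARS2 at 0.21 ± 0.27. On that set 0 members had an adjusted p under 0.05 in either comparison, and 1 had an unadjusted p under 0.05 in each, LARS in GV and AIMP1 in MII. For CARS2 in GV the 95% interval of the log2(FPKM + 1) change ran from -0.84 to 1.05. For low members the interval on this scale is narrow because of the added 1 and does not bound the fold. AARS in MII, at 0.01 ± 0.02 here, stood at 0.10 ± 0.43 without the division by span.

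**Figure D5:**
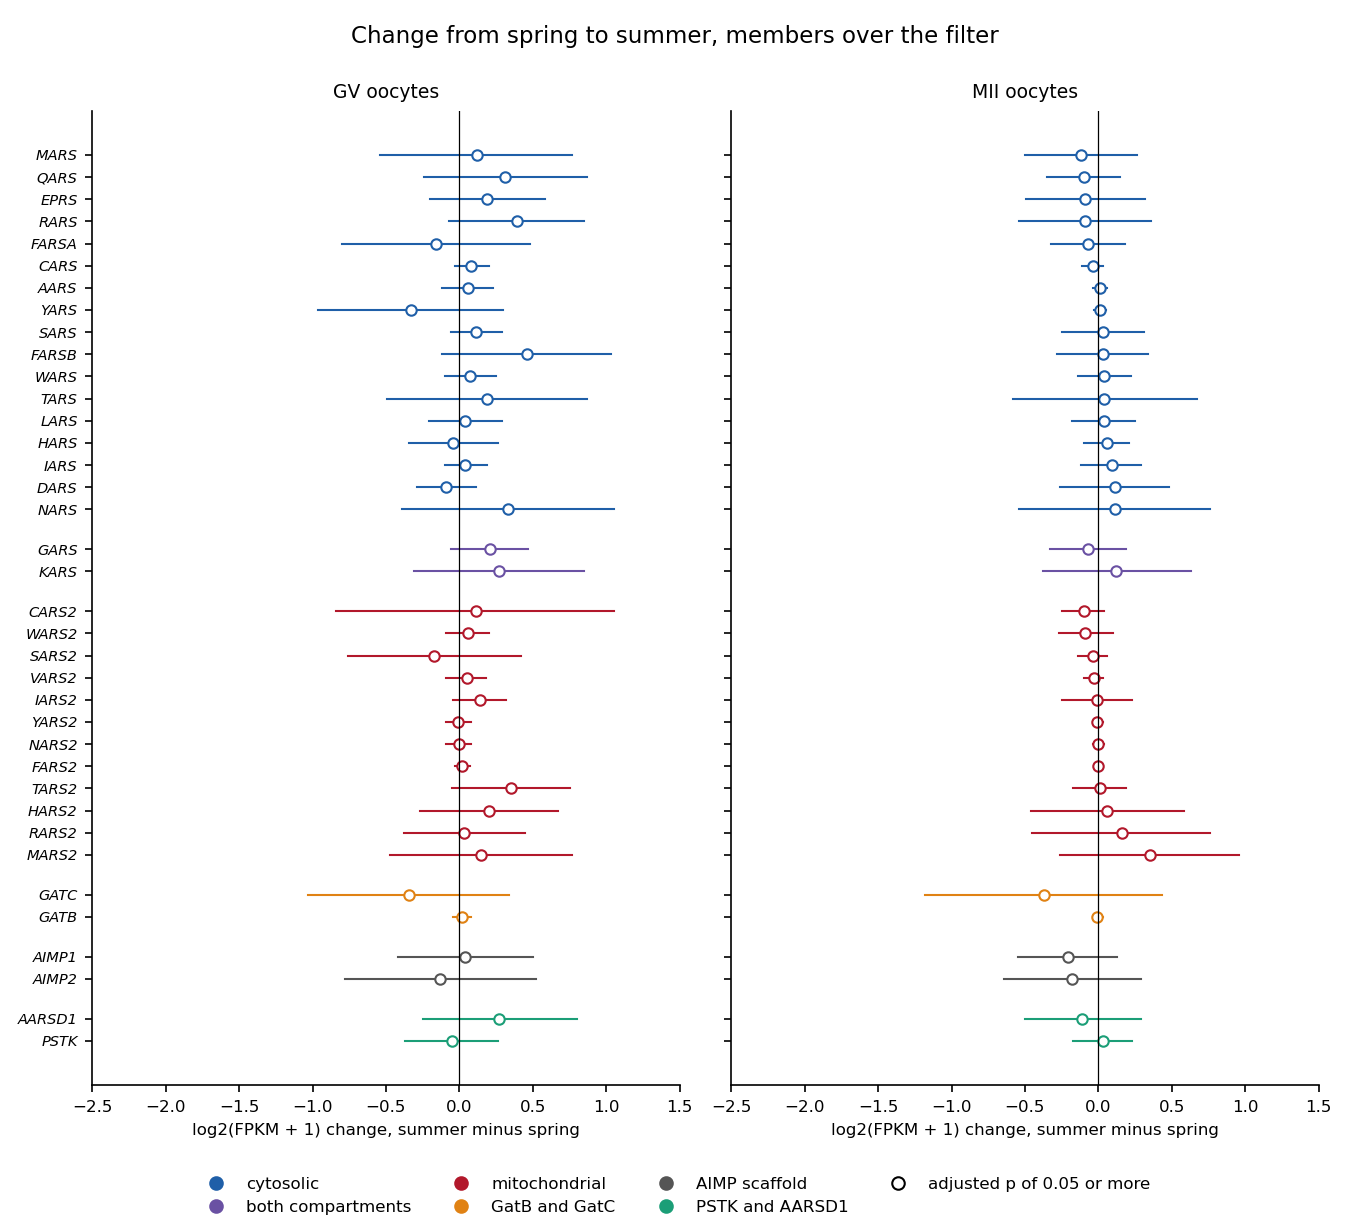
Change from spring to summer in log2(FPKM + 1) for the members over the filter that are reported by name, in GV oocytes on the left and MII oocytes on the right, with 95% intervals from limma. No point is filled, since no adjusted p was under 0.05, and the axis is the same as for the change from GV to MII.

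The change from GV to MII was also compared between the seasons in 1 model of all 4 groups. None of 38 members passed by limma, at adjusted or at unadjusted p under 0.05, beside 0% and 1.80% of all genes. CARS, GARS and RARS had the smallest p, at differences (summer minus spring) of -0.12 ± 0.06, -0.28 ± 0.16 and -0.48 ± 0.29 and unadjusted p of 0.0769, 0.106 and 0.115. Without the 3 libraries of fewest reads these were -0.05 ± 0.05, -0.22 ± 0.16 and -0.61 ± 0.29, and RARS had an unadjusted p of 0.0477, with 0 members past the adjusted threshold. So the longer list of members that fell in summer is a difference in calls and was not shown to be a difference in change.

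Genes that act beside the synthetases were counted in lists chosen by function. Over all genes, 9.45% rose and 14.7% fell in spring and 7.67% rose and 23.1% fell in summer, and the counts of these short lists are given for reading beside those shares. Of 10 charging helpers, 5 rose in spring and 3 in summer and none fell, with medians of 0.50 and 0.23. EEF1E1, the further scaffold protein of the multisynthetase complex, rose in both seasons (0.76 ± 0.21 and 0.77 ± 0.19). XPOT, which exports tRNA from the nucleus, rose in both (0.52 ± 0.15 and 0.55 ± 0.18), as did MTFMT, which formylates the mitochondrial initiator tRNA (0.48 ± 0.15 and 0.59 ± 0.18). TRNT1, which adds the CCA end to tRNA, rose in spring (0.60 ± 0.16) and stood at 0.38 ± 0.20 in summer.

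Of 15 genes of mitochondrial tRNA processing and modification, 1 rose and 2 fell in spring and 5 fell in summer, with medians of -0.09 and -0.15. TRMU, which thiolates mitochondrial tRNA, fell from means of 1.98 and 1.67 FPKM in spring and summer GV to 0.253 and 0.233 in MII. QTRT1, which places queuine in tRNA, fell from 2.77 and 2.79 to 0.456 and 0.411. Of 18 genes of cytosolic tRNA splicing and modification, 1 rose and 5 fell in spring and 1 rose and 9 fell in summer, with medians of -0.42 and -0.28. TRPT1, TP53RK, TRMT1 and TSEN54, a splicing endonuclease subunit, fell in both seasons.

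Of 10 mitochondrial translation factors, 2 rose and 2 fell in spring and 1 rose and 4 fell in summer, with medians of 0.10 and 0.01. TUFM, the mitochondrial elongation factor that carries charged tRNA to the ribosome, fell from means of 19.8 and 29.5 FPKM to 3.13 and 3.01, with log2 changes of -2.42 ± 0.29 and -2.81 ± 0.47. Of 9 amino acid response genes, 1 rose and 2 fell in spring and 2 fell in summer, with medians of -0.06 and 0.01. ASNS, asparagine synthetase, and CHAC1, which degrades glutathione, fell in both seasons. DDIT3 rose in spring (1.07 ± 0.23) and stood at 0.77 ± 0.28 in summer (adjusted p = 0.0575).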

How the data were processed

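Libraries were made by the authors with a poly(A)-primed amplification kit (Smart-seq2 v4) and an unstranded kit (Nextera XT), sequenced, aligned to UMD3.1.1 with STAR 2.5.3a and quantified. The deposited values are FPKM, described by the authors as per kilobase of exon. They sum to between 86768.1 and 86768.2 in every library and hold 0.01 added to every value. With that taken off, they were found to be divided by Stop minus Start of each locus (98.4% of 215895 values under 1000 reads lay within 0.1 of a whole number of reads). Depth sets the precision. The authors collected from the same cows at every session and matured part of each cow's oocytes, so groups may share animals. The labels do not say which pools came from the same cow, and the main tests treated all libraries as independent. Whether p-values reach beyond these pools also depends on each pool of a group being a separate animal, as described.

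Genes over 0.1 FPKM in at least 1 of 24 libraries (9526 of 11306) were tested on log2(FPKM + 1) with limma 3.58.1 in R 4.3.3, moderation following mean expression, and Benjamini-Hochberg adjustment over all of them. A member rose or fell at an adjusted p under 0.05. The authors used the GSA algorithm of Partek Flow, which was not used here. Pairs and single values had exact permutation tests over all assignments of 6 and 6 libraries. Log2 changes are given ± SE, and means of differences ± SD. Fold differences are quotients of group mean FPKM with the added 0.01 left in, so those of members at low levels are understated.

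All 41 members are counted by compartment, and the values of 1 of them are not reported here. Those named with full values are, by compartment, up to 5 members past the threshold in each direction (the few scaffold and accessory members past it were added), the 3 smallest p in each season comparison, same-amino-acid pairs, the highest and lowest levels, and up to 4 genes of each list by smallest p. The members and lists were chosen with earlier results of these data known, so no list is independent support. Of the 41 symbols, 40 matched RefSeq gene names (all but EPRS). Tests on simulated data recovered 84 of 200 genes at a log2 change of 1 and 200 of 200 at 2, for MII against GV in summer over 9526 genes. False calls numbered 1 and 13. The changed genes were drawn from those with a mean log2(FPKM + 1) over 1, so these shares do not describe members of lower level. The depth step recovered 24 of 24 libraries over 11306 genes.

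Alternatives were other pseudocounts (0.1, none), filters, scalings, the replicate block, robust moderation, single libraries left out, and 2 scales without the division by span. The last 2 were chosen after seeing the data.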

Additional observations from a re-analysis of the deposited data

Results flagged for a closer look

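In 128 groups of 6 libraries, from 32 members named by the rule or in a pair, the highest or lowest library stood apart from the others in 20 groups (15.6%) by Dixon's criterion on log2(FPKM + 1), where chance marks about 1 in 20 groups. Of the 20 values, 10 came from the 3 libraries with fewest reads and 10 from the others. The part of the scaling to a constant sum in these values was not tested.

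In spring GV replicate 6, YARS stood at 3.12 FPKM on 59 reads, against 0.0345 to 0.0491 in the other 5 libraries. The same library held AARS at 0.411 on 5 reads, HARS at 1.18 on 9 reads and MARS at 2.46 on 27 reads. All 4 were the highest of their group.

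In spring MII replicate 6, FARSA stood at 0.713 on 11 reads, FARSB at 1.69 on 192 reads and VARS2 at 0.167 on 3 reads. In summer GV replicate 2, AARSD1 stood at 7.12, FARSB at 4.38 and TARS2 at 1.93, the last against 0.174 to 0.608 in the other 5. In summer MII replicate 6, SARS stood at 0.800 on 88 reads and YARS at 0.103 on 17 reads, both highest.

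In summer MII replicate 2, RARS2 stood at 5.16 on 3190 reads, against 0.989 to 2.0 in the others, and DARS at 1.70 on 927 reads. In spring GV replicate 3, NARS2 stood at 0.196 on 99 reads, against 0.0248 to 0.0581, and IARS2 at 0.333 on 89 reads. In spring GV replicate 4, MARS2 was lowest at 0.445 on 9 reads, and in spring GV replicate 5, YARS2 was highest at 0.214 on 48 reads. AARS was highest in spring MII replicate 3 at 0.0753 on 11 reads, and HARS in summer MII replicate 4 at 0.450 on 34 reads.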

How the results depend on the processing

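No call of a named member turned its direction under any alternative. In spring, 2 members rose and 6 fell. Those that rose numbered 1 with a mean of at least 1 FPKM (12 members tested), 5 with quantile normalization and 1 with all 4 groups in one fit. They numbered 7 without the 3 libraries of fewest reads and 0 by the fold rule. That rule took the study's thresholds, an unadjusted p under 0.05 and a fold over 2, with limma on log2(FPKM + 1). It is not the study's own call, which came from Partek GSA. Those that fell numbered 3 with the mean filter, 10 with median-of-ratios scaling, 10 without the 3 libraries and 1 by the fold rule. Without the division by span they numbered 12 in reads per 1000000 and 10 on the deposited scaling. In summer, 2 rose and 13 fell. Those that rose numbered 0 with the mean filter, 4 with quantile normalization and 0 by the fold rule. Those that fell numbered 4 with the mean filter, 20 in reads per 1000000 and 2 by the fold rule. Quantile normalization gave 1944 genes up and 1322 down in spring over all genes, against 900 and 1404, and 2219 and 1746 in summer, against 731 and 2198. Reads per 1000000 moved the median of all genes to -0.29 in spring and -0.41 in summer, and the cytosolic medians to -0.86 and -1.17 and the mitochondrial ones to -0.25 and -0.58. The mitochondrial median was above 0 in spring in the reported fit (0.01) and at -0.06 without the division by span, where all genes also stood at -0.06. It was above 0 in summer with quantile normalization (0.04) and with the mean filter (0.24). The cause of these shifts was not tested.

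With the replicate block, 4 members rose and 7 fell in spring, 2 rose and 11 fell in summer, and 5 pairs changed in spring against 7. The block took the summer calls of YARS2 (adjusted p = 0.0527) and QARS (0.0534). The labels do not say what the shared numbers mean. Correlations of same-numbered libraries ran from -0.169 to 0.535 (mean 0.162, other numbers -0.00336) and from -0.279 to 0.649 (0.231 and -0.0332) for stage in spring and summer, and from -0.322 to 0.439 (-0.00458 and 0.0293) and -0.441 to 0.764 (0.338 and -0.054) for season in GV and MII. Of 6 libraries, 2, 1, 1 and 4 correlated best with their own number. Not every pair exceeded 0.1 in any comparison, and the libraries were treated as unpaired. This rule does not decide whether same-numbered pools share an animal. Between the seasons in MII, same-numbered libraries were closer on average than others.

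With each library omitted in turn, fits gave 0 to 5 members higher and 2 to 9 lower in spring, 1 to 3 higher and 10 to 14 lower in summer, 0 to 0 in the season comparisons and in their difference, and 7 to 8 and 6 to 9 pairs. In spring, the higher count was 0 without GV replicate 5, 5 without GV replicate 6 and 1 without GV replicate 1, 2 or 4 or MII replicate 4 or 5, and the lower count 2 without GV replicate 4 or 5 or MII replicate 2 or 5 and 3 without MII replicate 4. In summer, the higher count was 1 without GV replicate 1, 3, 5 or 6 or MII replicate 5. Of the spring calls, AARS was lost in none of 12 fits, FARSB (adjusted p = 0.0554) and CARS2 (0.0514) without GV replicate 5, and FARSA, IARS, HARS, SARS2 and RARS in 6, 6, 5, 8 and 8 fits, at an adjusted p of up to 0.0864. Of the summer calls, IARS, PSTK, AIMP2 and QARS were lost in 5, 7, 6 and 8 fits, at up to 0.0931, and the other 11 in none. Quantile normalization took the calls of RARS in spring (adjusted p = 0.116) and of FARS2, YARS2, HARS, PSTK and AIMP2 in summer (0.0809, 0.201, 0.0537, 0.0972 and 0.347). AIMP2 was also lost with median-of-ratios scaling (0.116), in one fit of 4 groups (0.0751) and without the division by span (0.0509). One fit of 4 groups took FARSB in spring (0.0869) and YARS2 and PSTK in summer (0.0601 and 0.0563), and no filter took QARS (0.0607).

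Depth limits the low members most. A single read was a large step for VARS2, AARS and FARSA in MII libraries, which held 0 to 3, 0 to 12 and 0 to 20 reads.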

Other observations

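On the scale without the division by locus span, all 41 members could be tested, including the 3 that the filter had left out. AARS2, the mitochondrial alanyl enzyme, had 2 to 23 reads per library in spring GV and 0 to 1 in spring MII, and fell (-2.02 ± 0.40 on the log2 scale, limma adjusted p = 0.00134). In summer it had 5 to 59 reads in GV and 0 to 8 in MII, with an estimate of -0.93 ± 0.37 (adjusted p = 0.0552). Its locus overlaps MRPL14, TMEM63B and an H2B entry, and reads cannot be assigned between them. LARS2 and QRSL1 gave -0.06 ± 0.40 and -0.46 ± 0.49 in spring and -0.14 ± 0.32 and -0.23 ± 0.36 in summer, and neither passed.

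This scale was chosen after the data were seen. It gave 2 members that rose and 10 that fell in spring, beside 13.3% and 18.6% of all 9613 genes tested, and 2 and 14 in summer, beside 9.58% and 27.1%. All 8 spring calls and 14 of the 15 summer calls remained, with AIMP2 lost. AARS2, AARSD1, FARS2 and PSTK were added in spring and SARS and TARS2 in summer. The log2 changes of low members were larger here: FARS2 went from -0.06 to -2.19 in summer, AARS from -0.24 to -2.40, and CARS2 from -1.65 to -4.00. In the season comparisons and in their difference 0 members had an adjusted p under 0.05 on this scale by limma, and 0, 1 and 1 had an unadjusted p under 0.05 in GV, in MII and in the difference. AARS2 was the member in both cases.

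By structural class, on log2(FPKM + 1), 3 of 15 class I and 5 of 16 class II enzymes passed in spring, beside 24.2% of all genes. In summer 6 of 15 and 6 of 16 passed, beside 30.7% of all genes. The medians were 0.02 and -0.02 in spring and -0.08 and -0.10 in summer. Without the division by span, the class I and class II medians were -0.04 and -0.75 in spring and -0.31 and -0.93 in summer. All genes stood at -0.06 and -0.25. On that scale 18.8% of 16 class I and 41.2% of 17 class II enzymes passed in spring, and 37.5% and 47.1% in summer. Over all genes 13.3% rose and 18.6% fell in spring, and 9.58% and 27.1% in summer. The difference between the classes was not tested.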
